A study of Homo sapiens with 12 samples.

Results

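HD-MB03, a cell line from a human medulloblastoma whose MYC gene is amplified, was compared after 48 h in 1 µM entinostat and after 48 h in its solvent DMSO. Entinostat inhibits the class I histone deacetylases (HDACs). The comparison takes 6 of the 12 arrays of the series, chosen by the time and the treatment in their labels: 3 from entinostat-treated cells and 3 from cells given DMSO alone, which the labels call untreated. The other 6 arrays hold the same drug and solvent after 24 h. All cultures were of this 1 line, so the values describe HD-MB03 and not medulloblastoma in general. Per the study's methods, the 3 arrays of a group were biological replicates, and each RNA sample was hybridized to an Affymetrix Human Genome U133 Plus 2.0 array. Values of single arrays are given in the order of their replicate numbers.

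Class I HDACs take acetyl groups off histone tails, mostly as the catalytic part of corepressor complexes such as NuRD, CoREST and SIN3. When they are inhibited, histones stay acetylated and many genes change in both directions, among them genes that hold the cell cycle back. Group 3 medulloblastoma, the childhood cerebellar tumour in which MYC amplification is most frequent, is known for a photoreceptor program under the homeobox factors OTX2 and CRX. The level of a gene is given here as the deposited intensity of its probe set on the linear scale, and a change as a log2 fold change of entinostat over DMSO at 48 h with its standard error from limma and an adjusted p. A gene rose or fell where that adjusted p (Benjamini-Hochberg over all probe sets) was under 0.05. Since RNA of whole cultures was measured, more RNA per cell and more cells that hold it cannot be told apart.

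After 48 h of entinostat, 6714 of 19775 genes had changed, a share of 34.0%, with 3427 higher (17.3%) and 3287 lower (16.6%). Over probe sets the share was 26.1% (14244 of 54613). Of the genes, 559 rose and 226 fell by at least 2-fold, and 66 and 17 did so by at least 4-fold. The median log2 fold change was 0.49 among the higher genes, -0.42 among the lower genes and -0.02 over all genes. The 3 entinostat and 3 DMSO intensities did not overlap in 8933 genes (45.2%), above DMSO in 4326 and below it in 4607. Genes passed the test more often where their probe sets were bright: 4.81% of those with a mean log2 under 6 passed, and 57.6% of those from 8 to 10. Where the mean log2 was 7 or more, in 9353 genes, 25.4% were higher and 29.9% lower, which is the nearer background for lists of bright genes.

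The arrays of a group were closely alike. Over all probe sets the correlation between 2 arrays lay between 0.993 and 0.994 within a group and between 0.968 and 0.972 across the groups, and the first principal component of the 6 arrays, which parts entinostat from DMSO, held 75.9% of the variance. As a sign of RNA quality, the 3' probe set of ACTB was set against its 5' probe set: their log2 difference was -0.157 to -0.123 in entinostat and -0.104 to -0.027 in DMSO (two-sided exact permutation test, p = 0.1, the smallest that 3 against 3 arrays allow). That of GAPDH was -0.117 to -0.026 and -0.119 to -0.111 (exact p = 0.3). Whether this difference in ACTB has a part in the results was not tested. Of 10523 genes with several probe sets, 703 had all of them higher, 635 all lower, and 99 had probe sets past the threshold in both directions.

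**Figure D1:**
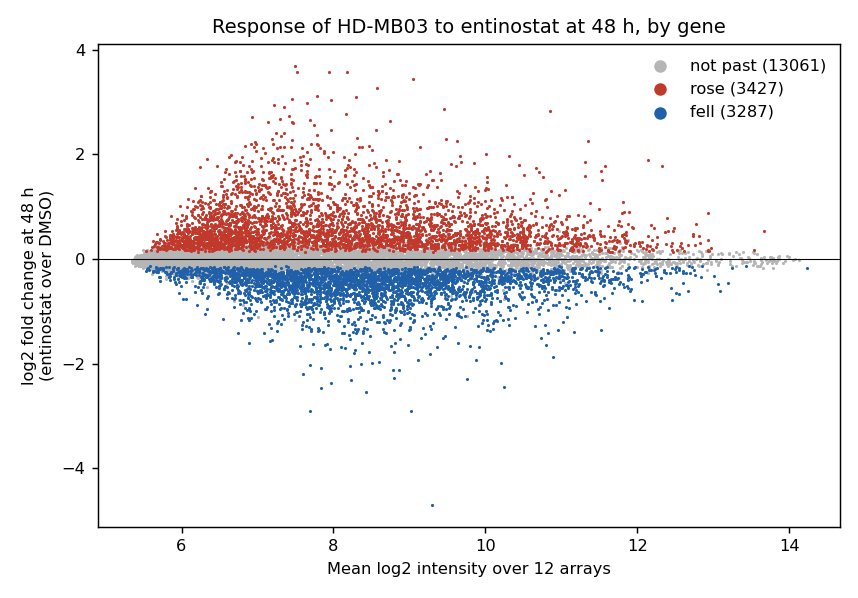
Each point is 1 of 19775 genes, with its mean log2 intensity over the 12 arrays on the horizontal axis and its log2 fold change at 48 h (entinostat over DMSO) on the vertical axis. Red points rose (3427), blue points fell (3287) and grey points did not pass. Of the 83 genes that changed by 4-fold or more, 82 had a mean log2 between 6 and 11.

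Many of the largest rises were those of genes that were dim in DMSO. TUBB2B, a beta-tubulin of developing neurons, had intensities of 672, 1132 and 686 in the entinostat arrays and 74.4, 70.0 and 59.5 in the DMSO arrays. The log2 fold change was 3.57 (standard error 0.16, adjusted p = 1.52e-08), and its only probe set ends in _x_at, the mark of probe sets that can bind several genes. FYTTD1, an adaptor of mRNA export, gave 1001, 992 and 969 in the entinostat arrays and 94.2, 84.2 and 72.4 in the DMSO arrays. MAN1A1, a mannosidase that trims N-glycans in the Golgi, gave 618, 655 and 746 in the entinostat arrays and 60.2, 56.6 and 53 in the DMSO arrays. For both of these genes every entinostat array was more than 8-fold above every DMSO array, and their log2 fold changes were 3.57 and 3.57. SYNPR, the synaptic vesicle protein synaptoporin, had the largest log2 fold change of all, 3.69 (standard error 0.21, adjusted p = 1.1e-07). CCK, the precursor of the neuropeptide cholecystokinin, rose from 76.0, 63.3 and 73.7 in DMSO to 597, 632 and 611 in entinostat, and SPINK2, a serine protease inhibitor, from 68.8, 64.0 and 60.8 to 488, 609 and 517. FKBP1B, an immunophilin of calcium release channels, had 3.04, and PKIB, an inhibitor of protein kinase A, 2.99. GCNT1, which branches O-glycans, and CLU, the secreted chaperone clusterin, had 2.91 and 2.88. Among the 15 largest rises, entinostat and DMSO arrays did not overlap, as the rule that named them asks.

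The falls included genes that were bright in DMSO. MXRA5, a matrix remodelling protein, had intensities of 113, 106 and 150.0 in the entinostat arrays and 2878, 3141 and 3502 in the DMSO arrays, and it had the largest fall, -4.70 on the log2 scale (standard error 0.16, adjusted p = 1.91e-09). C4orf54 had 554, 489 and 564 in the entinostat arrays and 3019, 2874 and 2866 in the DMSO arrays. The spread of its DMSO arrays was small against this difference of -2.45 on the log2 scale (standard error 0.07). ARHGAP9 fell in all 3 of its probe sets, and the one that represents it had 78.4, 75.5 and 80.2 in the entinostat arrays and 518, 528 and 734 in the DMSO arrays. PRRX1, a homeobox factor of mesenchymal cells, fell from 995, 964 and 1001 to 204, 176 and 234. KCTD15, an inhibitor of the transcription factor AP-2, had a log2 fold change of -2.32, IRAK1, a kinase of Toll-like receptor signalling, -2.29, and PHF2, a histone demethylase, -2.47. GABRA5, a GABA receptor subunit typical of group 3 tumours, had 202, 193 and 227 in the entinostat arrays and 889, 904 and 895 in the DMSO arrays (log2 fold change -2.12, standard error 0.07, adjusted p = 2.37e-09). CDKN1C, the CDK inhibitor p57, is the least certain of the 15 largest falls: its DMSO arrays were spread over 603, 423 and 279, its log2 fold change of -2.04 had a standard error of 0.54, and without DMSO 48 h replicate 1 it was -1.77 and did not pass (adjusted p = 0.0558).

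**Figure D2:**
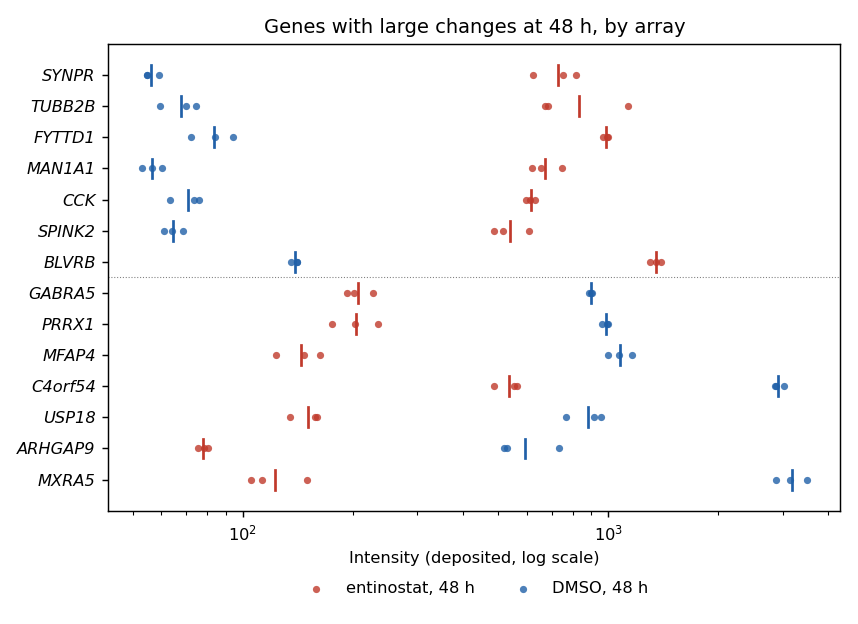
Intensities of 14 genes with large changes on the 6 arrays of 48 h (horizontal axis, log scale); each red point is an entinostat array, each blue point a DMSO array and each bar the mean of 3 arrays. The 7 upper genes rose and the 7 lower genes fell, and in all 14 the colours do not overlap.

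Of the 4 class I HDAC genes, HDAC1 and HDAC3 rose, HDAC8 fell and HDAC2 did not pass. HDAC1 rose, with intensities of 947, 1280.2 and 1139 in the entinostat arrays and 743, 806 and 829 in the DMSO arrays (log2 fold change 0.49, standard error 0.09, adjusted p = 0.00138), and HDAC3 rose by 0.53. HDAC2 had 2755, 3524 and 2737 in the entinostat arrays and 2701, 2672 and 2597 in the DMSO arrays. Its groups did not overlap, but one DMSO and one entinostat array were close and it did not pass (log2 fold change 0.17, adjusted p = 0.393). HDAC8, a class I member that works without a corepressor complex, fell by 0.40. Over the whole list of class I HDACs and their corepressors, 6 of 34 measured genes rose and 10 fell, with a median log2 fold change of -0.04. Of the 34, 33 had a mean log2 of at least 7, where 25.4% of genes rose and 29.9% fell, so the list did not stand out from bright genes. The 3 largest falls were in the NuRD complex: MTA1 had -1.07, CHD3, its remodelling ATPase, -0.82, and MBD3, which holds the complex together, -0.52. RCOR1, the scaffold of CoREST, rose by 0.63. Of 14 genes for class II and class IV HDACs and sirtuins, 2 rose and 2 fell: HDAC5 (0.32) and SIRT4 (0.56) rose, and HDAC4 (-0.38) and HDAC6 (-0.33) fell.

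MYC stayed bright under entinostat. Its intensities were 12956, 13272 and 12765 in the entinostat arrays and 11315, 11817 and 11506 in the DMSO arrays, so the entinostat arrays lay just above the DMSO arrays, and the log2 fold change was 0.17 (standard error 0.05, adjusted p = 0.0163). The call was lost without DMSO 48 h replicate 1 (0.16, adjusted p = 0.0586) and without entinostat 48 h replicate 2 (0.16, adjusted p = 0.0556), and also when only the 6 arrays of 48 h were fitted (adjusted p = 0.0505). MGA, which pairs with MAX and represses the sites that MYC binds, rose more clearly, from 264, 293 and 234 to 365, 358 and 402 (log2 fold change 0.51, standard error 0.09, adjusted p = 0.000751). Of 13 measured genes of the MYC, MAX and MXD network, 4 rose and 1 fell, where 17.3% and 16.6% of all genes did. At an adjusted p under 0.01, MGA alone passed among the 4 that rose.

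The study went on to test entinostat with drugs against PARP, MDM2, CDK4 and CDK6, exportin 1 (XPO1) and tubulin. PARP1, the main target of olaparib, had 2988, 3126 and 3152 in the entinostat arrays and 3146, 3048 and 3064 in the DMSO arrays, and its log2 fold change was 0.00 (standard error 0.06, adjusted p = 0.994). The groups overlap. PARP2, its close relative, fell in all 3 of its probe sets, from 684, 652 and 674 to 418, 340.5 and 408 in the one that represents it (log2 fold change -0.79, standard error 0.09, adjusted p = 2.59e-05). MDM2, the ubiquitin ligase of p53, had -0.20 and did not pass (adjusted p = 0.525), while another of its 10 probe sets gave 0.33 (adjusted p = 0.0171). XPO1, the export receptor that selinexor blocks, fell by 0.42. CDK4 fell by 0.30, CDK6 had -0.11 (adjusted p = 0.401), and CCND2, a D cyclin that activates both kinases, fell from 3091, 3274 and 3282 to 1776, 1748 and 1786. Of 23 measured genes that encode targets of these drugs or partners in the same pathways, 5 rose and 8 fell, and 3 in place of 5 rose without DMSO 48 h replicate 1 or 2 or entinostat 48 h replicate 2. Of the 23, 21 had a mean log2 of at least 7, where 25.4% of genes rose and 29.9% fell. Tubulins, the target of vinblastine, went both ways. TUBA1A, an alpha-tubulin of neurons, rose from 1369.9, 1223 and 1199.6 to 3334, 4029.7 and 4059, TUBB2A rose by 0.83, and TUBA4A fell by 0.64.

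All 7 measured CDK inhibitor genes changed, 5 of them upward (median log2 fold change 0.82), where 34.0% of all genes changed and 17.3% rose. With a mean log2 of at least 7, 2 of 4 rose and 2 fell, with a median of -0.42. CDKN1A, which encodes p21 and is known as a gene that HDAC inhibitors raise, had 605, 536 and 754 in the entinostat arrays and 369, 361 and 332 in the DMSO arrays. Each entinostat array was above each DMSO array, and the log2 fold change was 0.82 (standard error 0.13, adjusted p = 0.000454). CDKN2A, which encodes p16 and p14ARF, rose from 74.6, 90.2 and 71.9 to 263, 219 and 212 (log2 fold change 1.55), and CDKN2B, which encodes p15, rose by 0.99. CDKN1B, which encodes p27, went the other way, from 1752, 1709 and 1889 to 773, 844 and 779.6 (log2 fold change -1.16, standard error 0.07, adjusted p = 1.43e-07), and so did CDKN1C. The promoter of CDKN1A is shown since GC boxes near its start are the part through which HDAC inhibitors are known to act on it. In the 120 bases before its start (GRCh38.p14, chr6:36678594-36678713, plus strand, from RefSeq), capitals mark the 4 matches to GGGCGG, the last 2 of which overlap.
CDKN1A: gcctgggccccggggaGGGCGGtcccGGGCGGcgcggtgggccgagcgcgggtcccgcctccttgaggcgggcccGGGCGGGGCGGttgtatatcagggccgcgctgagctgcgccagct
A GC box on either strand was found in 71.5% of 2771 promoters (250 bases before to 50 after the start) of genes that rose, in 68.4% of 2710 of genes that fell, and in 52.8% of 9903 of genes that did not pass. The share is thus alike in both directions, and it was 58.9% over the 15384 measured genes with a promoter in the table.

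Genes of DNA replication mostly fell. Of 42 measured genes of replication and nucleotide supply, 29 fell and 1 rose, with a median log2 fold change of -0.39; all 42 had a mean log2 of at least 7, where 29.9% of genes fell. MCM5 and MCM7 encode subunits of the replicative helicase. MCM5 had 434, 525 and 493 in the entinostat arrays and 977, 841 and 919 in the DMSO arrays, and MCM7 had 1480.0, 1396 and 1541 in the entinostat arrays and 2608, 2614 and 2566 in the DMSO arrays. Neither gene had overlapping groups, and the log2 fold changes were -0.92 (standard error 0.10, adjusted p = 1.35e-05) and -0.82 (standard error 0.06, adjusted p = 5.64e-07). CDC6, which loads that helicase, fell from 912, 878 and 853 to 471, 526 and 556, and GINS3, a subunit that activates it, fell by 0.85. TYMS, thymidylate synthase, was still bright in entinostat, with 3046, 2959 and 3300.4 in the entinostat arrays and 5293, 5395 and 5488 in the DMSO arrays (log2 fold change -0.80, standard error 0.07, adjusted p = 1.77e-06). Without probe sets that end in _x_at or _s_at, 19 of 33 measured members fell.

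Genes of mitosis mostly fell as well. Of 44 measured genes, 28 fell, 4 rose and 12 did not pass, and the median log2 fold change was -0.36. All but 1 of them (43 of 44) had a mean log2 of at least 7, where 29.9% of genes fell. KIF15, a kinesin of the spindle, had 143, 177 and 174 in the entinostat arrays and 391, 369 and 351 in the DMSO arrays (log2 fold change -1.17, standard error 0.10, adjusted p = 2.83e-06). PLK4, the kinase that starts centriole duplication, fell from 593, 576 and 643 to 307, 291 and 320.3, and CCNB2, a B cyclin, from 2025, 1930.1 and 2038 to 1101, 1233 and 1105. BUB1B, a kinase of the spindle checkpoint, had 997, 809 and 947 in the entinostat arrays and 1648, 1352 and 1509 in the DMSO arrays. NDC80, the part of the kinetochore that holds microtubules, fell by 0.77. SGO2, a guardian of centromere cohesion, was among the 4 that rose, with 734, 720.5 and 682 in the entinostat arrays and 419, 416 and 388 in the DMSO arrays and both of its probe sets higher.

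Many promoters of cell cycle genes carry a CHR, an element of the sequence TTTGAA through which the DREAM complex and B-MYB are known to act. The letters TTTGAA stood on either strand in 24 of 38 promoters of the mitosis list (63.2%), against 11.9% of the measured genes, 15.4% of all 27305 promoters and 2.63% of 38 promoters of the replication list. In genes that fell they stood in 10.8% and in genes that rose in 8.66%. The 80 bases before the start of 3 of the mitosis genes above that fell are shown because each holds 1 match, in capitals, between 23 and 35 bases before the start (GRCh38.p14, plus strand, from RefSeq: CCNB2 chr15:59105066-59105145, KIF15 chr3:44761714-44761793, BUB1B chr15:40160989-40161068). In KIF15 the match is on the other strand and reads TTCAAA here.
CCNB2: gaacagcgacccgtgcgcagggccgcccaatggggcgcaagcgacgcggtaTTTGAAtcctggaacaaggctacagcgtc
KIF15: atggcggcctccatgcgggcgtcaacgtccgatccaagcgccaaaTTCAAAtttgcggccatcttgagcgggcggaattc
BUB1B: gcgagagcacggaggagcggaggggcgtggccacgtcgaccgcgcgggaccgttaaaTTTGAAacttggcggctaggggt
These matches describe the windows and are not evidence that a factor was bound there.

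Genes of DNA repair fell more often than they rose. Beside the counts in this and the next 2 paragraphs, 16.6% of all genes fell, and 29.9% of those with a mean log2 of at least 7. Homologous recombination mends double-strand breaks from the sister chromatid, and the Fanconi genes mend crosslinks. Of 33 measured genes of these 2 groups, 16 fell and 0 rose in limma, with a median log2 fold change of -0.24; at an unadjusted p under 0.05, 18 were lower and 0 higher. BRCA1 had 267, 282 and 299 in the entinostat arrays and 403, 388 and 419 in the DMSO arrays, without overlap and in both of its probe sets, (log2 fold change -0.51, standard error 0.05, adjusted p = 1.53e-05). BARD1, its partner, fell from 879.9, 925 and 869.7 to 597, 579 and 594. RAD51AP1, which helps strand invasion, fell from 1511, 1276 and 1348 to 729, 626 and 644 and had the largest fall of the list (-1.05). FANCG and BRIP1, both genes of Fanconi anaemia, fell (log2 fold changes -0.90 and -0.84), and WRN, the Werner helicase, fell by 0.63.

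Base excision repair, the pathway in which PARP1 and PARP2 work, cuts out damaged bases. Of 23 measured genes, 13 fell and 2 rose (median log2 fold change -0.26). The glycosylases that start it were among the larger falls. NEIL2 had 277, 342 and 286 in the entinostat arrays and 579, 626 and 587 in the DMSO arrays (log2 fold change -0.99, standard error 0.07, adjusted p = 9.27e-07). NTHL1 had 324, 326 and 323 in the entinostat arrays and 489, 502 and 485 in the DMSO arrays, with little spread within each group, (log2 fold change -0.60, standard error 0.05, adjusted p = 1.57e-06). NEIL3 fell by 0.65 and UNG, which removes uracil, fell by 0.52. In mismatch and nucleotide excision repair, 9 of 22 fell and 2 rose. MLH3 and DDB2, which recognises ultraviolet damage, fell (log2 fold changes -0.50 and -0.46), whereas ERCC1, part of the nuclease that cuts at the lesion, rose in all 3 of its probe sets, from 259.8, 286 and 314 to 445, 444 and 472.

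Of 14 measured genes of end joining, 4 fell (28.6%, near the 29.9% of bright genes) and 1 rose, and without _x_at and _s_at probe sets 2 of 11 fell and 1 rose. MAD2L2, a member of the shieldin complex that protects broken ends, rose from 451, 437 and 429.9 to 669, 764 and 764, while SHLD1 and SHLD2 of the same complex fell (log2 fold changes -0.42 and -0.36). Among 21 genes of the damage checkpoint, 8 fell and 0 rose in limma (11 lower and 2 higher at an unadjusted p under 0.05). All 21 had a mean log2 of at least 7, and without _x_at and _s_at probe sets 5 of 14 fell. CHEK1 and CHEK2 are its effector kinases. CHEK1 had 246, 264 and 255 in the entinostat arrays and 361, 379 and 385 in the DMSO arrays, CHEK2 had 305, 311 and 291 in the entinostat arrays and 478, 480.1 and 483 in the DMSO arrays, and their log2 fold changes were -0.56 (standard error 0.05, adjusted p = 3.97e-06) and -0.67 (standard error 0.07, adjusted p = 1.93e-05). HUS1, of the clamp that loads at damaged DNA, fell from 360.0, 364 and 347 to 223, 210.3 and 228 in all 3 probe sets. H2AX, the histone that is phosphorylated at breaks, had 1436 to 2296 in entinostat and 1884 to 2132 in DMSO and -0.11 (adjusted p = 0.61).

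**Figure D3:**
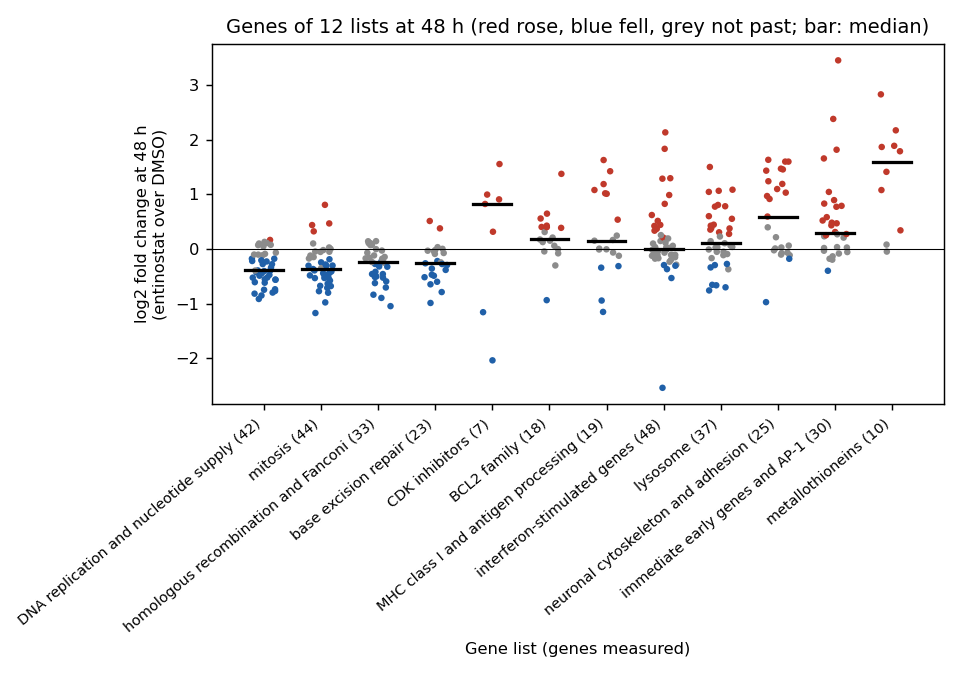
Log2 fold changes at 48 h (vertical axis) of the measured members of 12 gene lists, 1 point for each gene; red points rose, blue points fell, grey points did not pass, and each bar is the median of the list. The medians of the replication, mitosis, homologous recombination and base excision repair lists lie between -0.39 and -0.24, and that of the metallothioneins with MTF1 is 1.60.

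Genes of the BCL2 family rose more often than they fell. Of 18 measured, 7 rose and 1 fell, where 17.3% of all genes rose and 16.6% fell. A mean log2 of at least 7 was found in 11 of the 18, and 25.4% of such genes rose and 29.9% fell. BIK, a sensitizer of cell death, rose from 66.8, 63.2 and 67.0 to 146, 188 and 179 (log2 fold change 1.37, standard error 0.09, adjusted p = 2.85e-07). BAX, which opens the mitochondrial membrane, rose from 428, 388 and 455 to 680.0, 666 and 637, and BAD rose by 0.56. BID, which links death receptors to mitochondria, was the 1 member that fell, in all 3 probe sets, with 232, 166 and 222 in the entinostat arrays and 427, 322 and 438 in the DMSO arrays. Of 25 measured p53 target genes, 9 rose and 5 fell. With only probe sets of a mean log2 of at least 7 fitted, 6 of 20 rose and 5 fell. In that fit 2545 of 9353 genes rose and 3025 fell, so the list was near this background. GADD45A, a stress gene of growth arrest, had 1382, 1430.4 and 1473 in the entinostat arrays and 637, 733 and 709 in the DMSO arrays, and PLK2, a Polo-like kinase, 151, 240.2 and 217 in the entinostat arrays and 75.4, 81.9 and 83.5 in the DMSO arrays. TNFRSF10B, the death receptor DR5, was among those that fell, from 874, 735 and 809.8 to 464, 532 and 394. Without entinostat 48 h replicate 2, the number of p53 target genes that fell was 3 in place of 5.

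Several HLA genes of MHC class I rose, while interferon-stimulated genes went both ways. HLA-E had 749, 738 and 737 in the entinostat arrays and 236, 243 and 242 in the DMSO arrays, groups that were about 3-fold apart and each tight (log2 fold change 1.63, standard error 0.08, adjusted p = 3.71e-08). HLA-B rose from 762, 717 and 705 to 1876, 1993 and 1976, and HLA-C from 869, 827 and 795 to 1847, 1962 and 1854. HLA-G had 1.08, with all 4 of its probe sets higher. B2M, the shared light chain, rose from 4371, 4227 and 4207 to 6348, 6133 and 6067, but by 0.23 (adjusted p = 0.322) in its probe set that does not end in _x_at or _s_at. The probe sets of the HLA genes end in _x_at, and the genes are near-identical in part, so their values may be read from each other's transcripts. PSMB9, a subunit of the immunoproteasome with a probe set of its own, had 129, 132 and 134 in the entinostat arrays and 65.7, 66.3 and 63.6 in the DMSO arrays. ERAP2, which trims peptides, fell from 145, 129 and 133 to 58.4, 56.5 and 68.4 in all 5 probe sets. Over the list, 7 of 19 rose and 4 fell, and without _x_at and _s_at probe sets 2 of 14 rose and 4 fell. As background, 17.3% of all genes rose and 16.6% fell, and 25.4% and 29.9% of those with a mean log2 of at least 7.

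Of 48 measured interferon-stimulated genes, 13 rose, 5 fell and 30 did not pass, with a median log2 fold change of -0.01. The shares over all genes were 17.3% higher and 16.6% lower. IFI6, a mitochondrial protein, had 443, 485 and 408 in the entinostat arrays and 106, 97.2 and 101 in the DMSO arrays (log2 fold change 2.13, standard error 0.07, adjusted p = 1.66e-09). UBE2L6 and HERC5, the enzymes that attach ISG15 to proteins, rose from 107, 96.0 and 84.0 to 365, 319 and 335 and from 78.9, 87.2 and 67.3 to 181, 204 and 184. USP18, which takes ISG15 off again, fell from 765, 916 and 956 to 135, 158 and 159.6 (log2 fold change -2.54, standard error 0.10, adjusted p = 8.29e-09). SAMHD1, which breaks down nucleotides, rose from 230.4, 205 and 193 to 402, 426 and 413, and IRF9, the DNA-binding part of the interferon response complex, fell by 0.31. The core of its element, GAAANNGAA, stood on either strand in 23 of 39 promoters of the list (59.0%) and in 6.71% of the measured genes; it stood in 5.16% of promoters of genes that rose and 5.72% of those that fell.

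Metallothioneins are small cysteine-rich proteins that bind zinc and copper. Of the list's 9 measured metallothionein genes, 7 rose and 0 fell in limma, the same counts as at an unadjusted p under 0.05, and their median log2 fold change was 1.79. With MTF1, the gene of the metal-responsive factor that is known to drive them and that the list also holds, 8 of 10 rose with a median of 1.60, the highest of the lists. Over all genes the share that rose was 17.3%. MT2A had 8908, 10159.6 and 10032 in the entinostat arrays and 2837, 2698 and 2893 in the DMSO arrays, and MT1X had 8102, 8836 and 8670.4 in the entinostat arrays and 2254, 2090.4 and 2612 in the DMSO arrays. In both, each entinostat array was more than 3-fold above each DMSO array, and the log2 fold changes were 1.79 (standard error 0.09, adjusted p = 2.68e-08) and 1.89 (standard error 0.10, adjusted p = 4.44e-08). MT1F had 4277, 4769 and 4661 in the entinostat arrays and 622, 598 and 716 in the DMSO arrays, the largest change of the list (log2 fold change 2.83, standard error 0.14, adjusted p = 4.12e-08). MT3, the form of neurons, whose probe set does not end in _x_at, rose from 271, 324 and 409 to 836, 814 and 990.1 (log2 fold change 1.41, standard error 0.14, adjusted p = 6.79e-06). The probe sets of the MT1 genes that rose and of MT2A end in _x_at, and these genes are so alike that 1 transcript may be read by several of them; without _x_at and _s_at probe sets 1 of 4 measured metallothionein genes rose, MT3. Metal response elements, of the core TGCNCNC, are known to drive these genes, and the forms TGCACNC and TGCGCNC were searched on either strand after the values had been seen. They stood in all 4 metallothionein promoters in the table, in 35.0% of the measured genes and in 29.3% of all promoters. The stretches before the start of MT2A (180 bases, GRCh38.p14, chr16:56608404-56608583) and MT1X (160 bases, chr16:56682310-56682469), both on the plus strand and from RefSeq, are shown for the density of the element, with the 6 and 4 matches in capitals; a match on the other strand reads GNGTGCA or GNGCGCA here.
MT2A: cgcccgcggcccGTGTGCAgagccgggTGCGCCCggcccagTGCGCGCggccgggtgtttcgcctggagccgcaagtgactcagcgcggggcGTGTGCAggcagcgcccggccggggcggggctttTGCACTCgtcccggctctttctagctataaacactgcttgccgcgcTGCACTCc
MT1X: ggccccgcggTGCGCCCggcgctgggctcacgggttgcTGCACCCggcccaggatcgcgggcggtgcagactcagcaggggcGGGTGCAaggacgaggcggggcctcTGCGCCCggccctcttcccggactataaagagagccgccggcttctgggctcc

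Genes of heme and redox metabolism were partly raised as well. Of 32 measured genes of heme, iron and redox, 11 rose and 6 fell. Of the 32, 31 had a mean log2 of at least 7, where 25.4% of genes rose and 29.9% fell. BLVRB, biliverdin reductase B, had 1299, 1350.4 and 1393 in the entinostat arrays and 136, 141 and 141 in the DMSO arrays, and the spread within each group was small enough for a standard error of 0.05 at a log2 fold change of 3.28. HMOX1, a heme oxygenase, rose from 99.4, 90.7 and 72.2 to 278, 309 and 276. SLC40A1, the iron exporter ferroportin, rose from 108, 113 and 113 to 314, 398 and 379.5, and GPX3, a secreted glutathione peroxidase, from 110.0, 111 and 144 to 502, 504 and 581. SRXN1 and TXNRD1, genes of the NRF2 response, rose by 1.34 and 0.90. Among 37 genes of heat shock and the unfolded protein response, 10 rose and 7 fell. Of the 37, 35 were as bright, so the share that rose was near that background. The sensor kinases EIF2AK3 and ERN1 rose by 1.04 and 0.97, while HSPH1, a heat shock protein, and CRELD2, a target of the unfolded protein response, fell (log2 fold changes -0.85 and -0.72).

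Lysosomal genes rose more often than they fell, 16 against 7 of 37 measured (median log2 fold change 0.10). A mean log2 of at least 7, where 25.4% of genes rose and 29.9% fell, was found in 29 of them. NPC2, which carries cholesterol out of the lysosome, rose from 305, 281 and 275 to 883, 783 and 772. PSAP, the precursor of the saposins, had 5265, 5864 and 5283 in the entinostat arrays and 2589.6, 2509 and 2643 in the DMSO arrays. These groups were about 2-fold apart, and both of its probe sets were higher. LIPA, lysosomal acid lipase, and NEU1, a sialidase, rose by 1.06 and 1.04. Of 22 genes of sterol synthesis, 6 rose and 5 fell, and of 24 of glycolysis, 7 rose and 7 fell. In these lists, 20 and 22 genes had a mean log2 of at least 7, where 25.4% of genes rose and 29.9% fell. PKM, pyruvate kinase, was raised from 1881, 2049 and 1785 to 5638, 5505 and 5118, ALDOC and ENO2, the neuronal forms of aldolase and enolase, rose by 1.58 and 1.02, and PDK1, which holds pyruvate back from mitochondria, fell by 0.95. Of 51 genes of oxidative phosphorylation, 50 of them as bright, 10 rose and 11 fell, with a median of 0.00. Cytosolic ribosomal proteins hardly moved: of 51 measured, 1 fell and 0 rose in limma (5 lower and 2 higher at an unadjusted p under 0.05). Of 18 aminoacyl-tRNA synthetases, 3 rose and 6 fell. All 18 had a mean log2 of at least 7, so the share that fell was near the 29.9% of such genes.

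Of the identity factors of the tumour line, OTX2, NRL and CRX did not rise, and genes of the photoreceptor program went both ways. OTX2 was bright, with 6602, 7142 and 6097 in the entinostat arrays and 6956, 7068 and 6959 in the DMSO arrays, and did not pass (log2 fold change -0.08, adjusted p = 0.457). NRL, a factor of rods, had 921 to 1652 in entinostat and 1749 to 2852 in DMSO, groups that did not overlap but were widely spread (log2 fold change -0.77, adjusted p = 0.174). NRL passed when only the 6 arrays of 48 h were fitted (adjusted p = 0.0481). CRX fell by 0.44, but the call was lost without DMSO 48 h replicate 2 (-0.39, adjusted p = 0.105) and without 3 of the other 48 h arrays (DMSO replicate 3 and entinostat replicates 1 and 2, adjusted p from 0.0636 to 0.113). Of 43 measured genes of the photoreceptor program, 11 rose and 12 fell. With only probe sets of a mean log2 of at least 7 fitted, 4 of 16 rose and 7 fell (median log2 fold change -0.45). In that fit 2545 of all 9353 genes rose and 3025 fell. SAG, the arrestin of rods, rose from 107, 112 and 140.2 to 519, 368 and 506, and PDE6H, the inhibitory subunit of the cone phosphodiesterase, from 64.7, 62.2 and 61.2 to 197, 191 and 158. RD3, a regulator of guanylate cyclase, fell from 3642, 4072 and 3977 to 1185, 1050.3 and 968, GUCA1A, an activator of the same cyclase, fell from 481, 659.7 and 540.0 to 137, 113 and 113, and IMPG2, a proteoglycan around photoreceptors, from 3221, 3516 and 3515 to 1250.2, 1050.2 and 1295. Of 16 group 3 marker genes, 2 rose and 7 fell, and their summed intensity was 23518 to 24111 in entinostat and 27205 to 28964 in DMSO. In the fit of probe sets with a mean log2 of at least 7, 2 of 11 rose and 6 fell (median log2 fold change -1.31). SOX11, an embryonic neural factor, fell from 358, 406 and 358 to 119, 111 and 131.

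Among genes of the neuronal cytoskeleton, 13 of 25 were higher, 2 were lower and the median log2 fold change was 0.59. For the counts in this paragraph, 17.3% of all genes rose and 16.6% fell. Where the mean log2 was at least 7, these shares were 25.4% and 29.9%. INA, an intermediate filament of neurons, had 971, 1042 and 953 in the entinostat arrays and 355, 323 and 284 in the DMSO arrays, and NEFL, the light neurofilament, 191, 297 and 232 in the entinostat arrays and 72.7, 81.9 and 80.0 in the DMSO arrays. NRCAM, a cell adhesion molecule of axons, rose from 175, 159.7 and 166 to 462, 440.1 and 469 (log2 fold change 1.45, standard error 0.06, adjusted p = 6.33e-09), and MAPT, the microtubule protein tau, from 109, 103 and 110.5 to 283, 261 and 329.9. Of 37 genes of synaptic vesicles, 13 rose and 5 fell, and the number that fell was 1 when DMSO 48 h replicate 1 was left out and 3 when entinostat 48 h replicate 1 or 2 was. RAB3B, a GTPase of vesicle release, rose from 105, 102 and 90.4 to 294, 269.6 and 287 in all 5 probe sets, and SYN2, a synapsin, from 223, 246 and 236 to 485, 549 and 476. Of 29 genes of neuropeptides and secretory granules, 13 rose and 2 fell. CALCB, a calcitonin gene-related peptide, rose from 53, 50.2 and 48.7 to 209, 269.9 and 221 and TAC3, the precursor of neurokinin B, from 113, 116 and 114 to 257, 293 and 269. GAL, the precursor of galanin, fell from 785, 783 and 780.2 to 288, 265 and 276, with groups that stood well apart (log2 fold change -1.50, standard error 0.06, adjusted p = 5.36e-09). Among semaphorins and their receptors 8 of 31 rose and 7 fell, near the shares of all and of bright genes. SEMA3C rose from 87.8, 80.7 and 69.7 to 313, 422 and 323, and SEMA4C fell from 502, 587 and 606 to 208, 214 and 215.

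Inhibitors of basic helix-loop-helix factors rose. ID1 had 4382, 5076 and 5194 in the entinostat arrays and 1149, 869 and 1081 in the DMSO arrays (log2 fold change 2.25, standard error 0.10, adjusted p = 1.88e-08), and ID3 had 1398, 1907 and 1626 in the entinostat arrays and 450.3, 279 and 322 in the DMSO arrays (log2 fold change 2.25, standard error 0.16, adjusted p = 4.96e-07). Both code for proteins that bind helix-loop-helix factors without binding DNA. ID2 had 403, 870.3 and 537 in the entinostat arrays and 168, 159 and 169 in the DMSO arrays, with entinostat replicate 2 higher than the other 2. HEY1, a repressor downstream of Notch, rose from 102, 99.3 and 92.9 to 407, 504 and 432. Over the list of ID, HES and proneural factors, 12 of 29 rose and 4 fell, and without _x_at and _s_at probe sets 6 of 23 rose and 3 fell. Here and for the lists below, 17.3% of all genes rose and 16.6% fell. In the TGF-beta and BMP pathway, for which ID genes are targets, 15 of 46 rose and 7 fell. The ligand BMP2 rose from 67.7, 66.8 and 75.5 to 135, 137 and 141, the decoy receptor BAMBI rose from 106, 90 and 87.6 to 302, 306 and 267, and the receptor BMPR1B and the signal carrier SMAD1 fell (log2 fold changes -1.20 and -1.10). In the Notch pathway 7 of 30 rose and 8 fell. Of the 30, 21 had a mean log2 of at least 7, where 25.4% of genes rose and 29.9% fell. The receptor NOTCH2 and the ligand JAG1 rose by 0.59 and 0.57, and NOTCH1 and JAG2 fell (log2 fold changes -0.67 and -0.53). In the WNT pathway 11 of 49 rose and 6 fell, near the shares of all genes. The receptor FZD7 rose from 539, 614 and 517 to 1359.8, 1441 and 1321.

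Immediate early genes are known as genes that cells switch on soon after a stimulus. After 48 h of entinostat, of 30 measured, 17 rose and 1 fell (median log2 fold change 0.29). The background for this paragraph is 17.3% of all genes higher and 16.6% lower. With a mean log2 of at least 7 it is 25.4% and 29.9%. EGR1 had 436, 727 and 656 in the entinostat arrays and 107, 119.8 and 116 in the DMSO arrays and IER3 had 1581, 1708 and 1666 in the entinostat arrays and 174, 132 and 151 in the DMSO arrays, both without overlap. Their log2 fold changes were 2.38 (standard error 0.15, adjusted p = 2.09e-07) and 3.45 (standard error 0.13, adjusted p = 3.67e-09). DUSP5, a phosphatase that switches ERK off, rose from 408, 464 and 473 to 1516, 1679.8 and 1529, and FOS rose by 0.89. Among genes of contractile actin, caveolae, annexins and S100 proteins, 16 of 37 rose and 4 fell. TAGLN2, a transgelin, had 779.9, 847 and 782 in the entinostat arrays and 138, 110.1 and 108 in the DMSO arrays, and CAV1, the coat protein of caveolae, 1254, 1187 and 1177 in the entinostat arrays and 287, 261 and 269 in the DMSO arrays. S100A10 rose from 63.1, 71.6 and 77.6 to 282, 324 and 219, and CAVIN1 from 110.4, 109 and 108 to 332, 308 and 364. Of 50 genes of the extracellular matrix, 13 rose and 10 fell, near the shares of all and of bright genes. THBS1, thrombospondin 1, rose from 69.4, 67.4 and 54.9 to 341, 479 and 352. The laminin chain LAMA1 rose from 152, 179 and 146 to 601, 533 and 643. MFAP4, a microfibril protein, fell from 1069, 1162 and 1002 to 124, 147 and 163.

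Of 46 measured histone genes, 13 rose and 2 fell, and without entinostat 48 h replicate 2 the first count was 8, a share of 17.4% beside the 17.3% of all genes. H2BC5, a histone H2B gene that is also made outside S phase, had 961, 1474 and 917 in the entinostat arrays and 343, 373 and 338 in the DMSO arrays, with that same array highest (log2 fold change 1.64, standard error 0.20, adjusted p = 4.28e-05). H2AZ2, a replacement histone, rose from 2870.2, 2981 and 2895 to 4049.7, 4519 and 4305 in all 4 probe sets. Among Polycomb and DNA methylation genes, 6 of 33 rose and 11 fell. Of the 33, 31 had a mean log2 of at least 7, where 25.4% of genes rose and 29.9% fell. DNMT3A, a de novo DNA methyltransferase, fell from 580.3, 644 and 644 to 245, 312 and 305, TET2, which oxidises methylated cytosine, fell by 0.74, and MTF2, a subunit of PRC2, rose in all 5 probe sets by 0.66. Of 39 germ cell genes, 5 rose and 4 fell, shares below the 17.3% and 16.6% of all genes. A mean log2 of at least 7 was found in 7 of the 39. CTCFL, the testis paralogue of CTCF, rose from 64.7, 64.1 and 61.1 to 189.7, 226 and 199, and TEX15, a gene of meiosis, from 140.2, 165 and 138 to 334, 401 and 346.

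**Figure D4:**
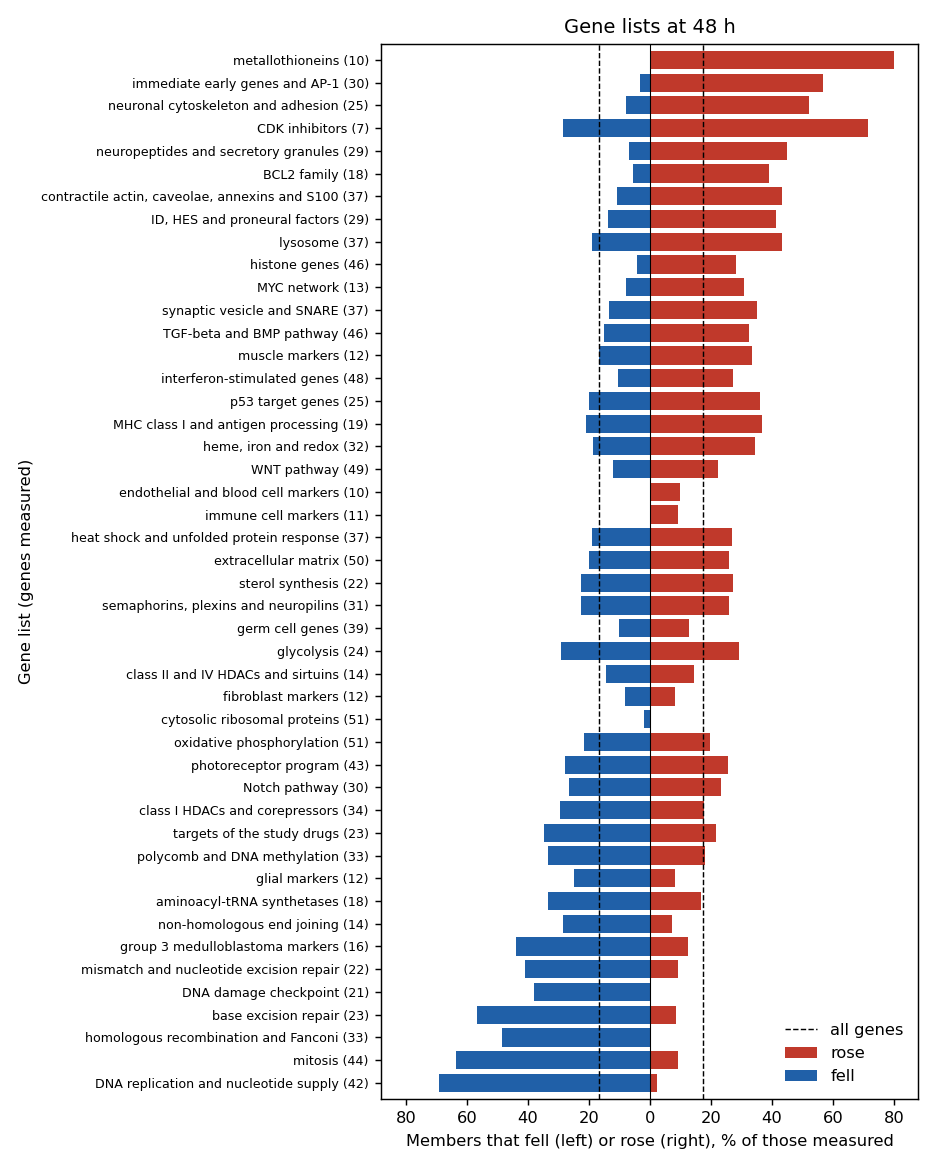
For each of 46 gene lists, the bars give the percentage of measured members that rose (red, to the right) and fell (blue, to the left) at 48 h, with the number measured in brackets; the dashed lines mark 17.3% and 16.6% of all genes. The bars of the metallothioneins (with MTF1) and CDK inhibitors reach farthest to the right, and those of replication and mitosis farthest to the left.

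Markers of fibroblasts, immune cells and endothelial or blood cells were mostly near the lowest intensities, where the lowest deposited value was 36.7 and the median of an array 80.6 to 81.8. For the counts below, 17.3% of all genes rose and 16.6% fell. Of 12 fibroblast markers, 1 rose and 1 fell; their summed intensity was 1217 to 1310 in entinostat and 1962 to 2051 in DMSO, and the difference lay in PRRX1. Of 11 markers of immune cells, 1 rose and 0 fell in limma (1 each at an unadjusted p under 0.05), with sums of 835 to 882 and 845 to 884. Of 10 markers of endothelial and blood cells, 1 rose and 0 fell in limma (2 and 0 at an unadjusted p under 0.05), with sums of 791 to 811 and 737 to 774. Of 12 glial markers, 1 rose and 3 fell, with sums of 3412 to 3560 and 4771 to 5296: GJA1, a gap junction protein, fell from 2562, 2326 and 2693 to 1338, 1348 and 1292, the glutamate transporter SLC1A3 fell by 1.17, and OLIG2 rose by 0.64. Of 12 muscle genes, 4 rose and 2 fell, with sums of 2090 to 2156 and 2765 to 3126. MYOD1, the master factor of muscle, which is also known to be expressed in some medulloblastomas, had 852, 722 and 848 in the entinostat arrays and 1862, 1863 and 1685 in the DMSO arrays (log2 fold change -1.16, standard error 0.11, adjusted p = 5.47e-06), and MYOG fell by 1.36, while the troponin TNNT1 rose from 134, 147 and 103 to 349, 424 and 368. Whether cells of these types have a part in any result was not tested.

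The effect at 48 h was set against that at 24 h by the interaction of treatment and time, which tests the difference itself. It passed for 380 of 19775 genes (1.92%), a count that fell to between 123 and 285 when each of the 12 arrays was left out in turn and to 76 when a background of 30 was taken off every value. Of these, 113 rose and did so more at 48 h, 141 fell and did so more at 48 h, and 33 and 14 rose and fell with the smaller change at 48 h. Passing at 48 h and not at 24 h was found in 1747 genes, of which the interaction passed in 104, so for the others no difference between the times was shown.

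BLVRB and TMEM133 had larger rises at 48 h. TMEM133 had 782 to 876 in entinostat and 298 to 309.6 in DMSO at 48 h and 363 to 379 in entinostat and 285 to 322 in DMSO at 24 h, so the gap between the groups was wider at the later time (interaction 1.16, standard error 0.08, adjusted p = 0.000331). For BLVRB the log2 fold change was 2.28 at 24 h and 3.28 at 48 h (interaction adjusted p = 0.000331). IFI6 had 1.39 and 2.13 (adjusted p = 0.00516). ID1 had 1.29 and 2.25, with 4582 to 5209 in entinostat and 1861 to 2087 in DMSO at 24 h, so the entinostat arrays overlapped between the times and the DMSO arrays were lower at 48 h. Falls that were larger at 48 h were those of MFAP4, with -1.47 and -2.90 (adjusted p = 0.00582), SUSD2, a sushi domain protein, with -0.95 and -2.13, GAL with -0.91 and -1.50, and NEIL2 with -0.23 and -0.99. ENO3, the muscle enolase, had -1.06 (adjusted p = 6.34e-05) at 48 h and 0.13 at 24 h (adjusted p = 0.582).

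Other genes had come back toward DMSO by 48 h. NEFH, the heavy neurofilament, had 133 to 201 in entinostat and 46.4 to 54 in DMSO at 48 h and 419 to 490.4 in entinostat and 45.2 to 47.4 in DMSO at 24 h, a rise at both times that was smaller at the later (interaction -1.69, standard error 0.18, adjusted p = 0.00242). ATOH8, a helix-loop-helix factor, had fallen at 24 h (-1.60) and had -0.20 (adjusted p = 0.445) at 48 h. NPNT, the matrix protein nephronectin, had risen at 24 h (0.85) and had -0.23 (adjusted p = 0.174) at 48 h. The calls at 48 h of both depend on single arrays, since ATOH8 passed without entinostat 48 h replicate 3 (-0.42, adjusted p = 0.0157) and NPNT without DMSO 48 h replicate 3 (-0.37, adjusted p = 0.00914). The interactions named in this and the preceding paragraph passed in all 12 refits without 1 array.

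Among the lists, those of the cell cycle had more members lower at 48 h than at 24 h. In replication 29 of 42 were lower at 48 h and 17 at 24 h, with medians of -0.39 and -0.20; the interaction passed for 2 of them. In mitosis 28 and 14 of 44 were lower, with medians of -0.36 and -0.13, and the interaction passed for 3. In base excision repair 13 and 7 of 23 were lower, and in homologous recombination and Fanconi repair 16 and 12 of 33, with the interaction past for 1 gene in each. These counts describe the lists, since single genes past the threshold at 1 time alone do not show a difference between the times.

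**Figure D5:**
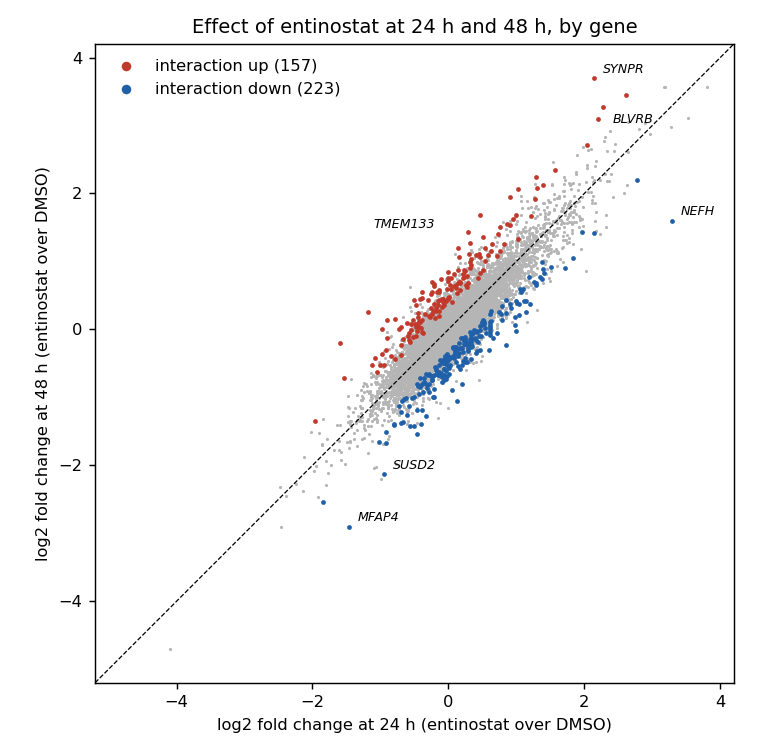
Log2 fold change of entinostat over DMSO at 24 h (horizontal axis) and at 48 h (vertical axis) of 19775 genes; red and blue points are the 380 genes whose interaction of treatment and time passed, upward (157) and downward (223), and the dashed line marks equal change. BLVRB, TMEM133 and SYNPR lie above the line and MFAP4, SUSD2 and NEFH below it, where NEFH had risen at both times.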

How the data were processed

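HD-MB03 cells received entinostat (1 µM) or DMSO, and RNA was taken after 24 h and 48 h in 3 biological replicates, and the 12 RNA samples were hybridized to Affymetrix Human Genome U133 Plus 2.0 arrays. The authors normalized the arrays with GCRMA at a core facility, per their methods and the submitters' processing notes; the version is not given in the sources used here. The deposited intensity values are on a linear scale, from 36.7 to 20146 with array medians of 80.6 to 81.8, so a background level is left in them and fold changes of dim genes are understated. Whether they are the GCRMA values raised from log2 or another step's output is not stated. No depth exists for arrays, and precision is limited by how many arrays there are.

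Of 54675 probe sets, 62 controls were left out. Log2 intensities of the 12 arrays were fitted with 1 coefficient per group in limma (version 3.58.1, R 4.3.3) with moderated variances and two-sided tests, and Benjamini-Hochberg adjustment ran over 54613 probe sets. The arrays of 24 h lend their spread to the fit, and the fold change at 48 h comes from its 6 arrays. The table has 2 empty cells, LGSN in DMSO 48 h replicate 3 and ODAPH in entinostat 48 h replicate 3, and the fit drops those cells. Of the probe sets, 41091 have 1 gene symbol in the platform annotation (41037 updated through their Entrez ID in the RefSeq table, 54 as given), 1801 have several and 11721 none; those without a single symbol were not named. A gene is represented by its probe set of the highest mean log2 over all arrays, which does not use the treatment.

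The genes named are the 15 largest rises and falls among genes past the threshold whose 48 h arrays do not overlap, the 10 largest interactions, up to 6 members per list with the largest change, and members that define a list or are targets of the study's drugs. The comparison, the gene lists and this rule were chosen with earlier results of these data known. Lists are described by counts and medians beside those of all genes, with no test of the list. Promoter windows are from RefSeq (GRCh38.p14), matched by symbol, 1 window per gene.

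On simulated data with the spread of these arrays, the fit recovered 8, 39, 49 and 50 of 50 probe sets changed by 0.25, 0.5, 1 and 2 on the log2 scale at 48 h, and called 6 of 54413 unchanged ones. Only these few probe sets were changed, where 26.1% were called in the data. The Benjamini-Hochberg cut-off depends on that share, so the recovery describes the simulation and not the fit of the data. Alternatives were other scalings, a background of 30 subtracted, a mean log2 of at least 7, other variance priors, array weights, the replicate number as a block, an adjusted p under 0.01, only the 48 h arrays, other probe sets per gene, and leaving out each array.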

Additional observations from a re-analysis of the deposited data

Results flagged for a closer look

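Among the genes named, 22 had an effect of entinostat at 48 h that differed from that at 24 h by the interaction of treatment and time, given here as the log2 fold change at 48 h minus that at 24 h. Rises that were larger at 48 h were those of SYNPR (1.55), TMEM133 (1.16), S100A10 (1.04), BLVRB (1.00), ID1 (0.95), IER3 (0.83), IFI6 (0.74) and PDE6H (0.63). Rises that were smaller at 48 h were those of NEFH (-1.69), TUBB2A (-0.58), CALCB (-0.58) and CDKN2B (-0.38). Falls that were larger at 48 h were those of MFAP4 (-1.44), SUSD2 (-1.19), NEIL2 (-0.76), USP18 (-0.70), GAL (-0.59) and CHEK1 (-0.35). ENO3 (-1.18) and TUBA4A (-0.53) fell at 48 h and did not pass at 24 h, while NPNT (-1.08) and ATOH8 (1.40) passed at 24 h and not at 48 h. Without 1 array in turn, the interaction passed in all 12 refits for BLVRB, ENO3, GAL, ID1, IFI6, MFAP4, NEFH, NEIL2, NPNT, SUSD2, TMEM133, TUBA4A and ATOH8. It passed in 4 of 12 for SYNPR, 3 for TUBB2A, 2 each for IER3, PDE6H and S100A10, 1 each for CALCB, CHEK1 and USP18, and 0 for CDKN2B, so these 9 rest on the full set of arrays.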

How the results depend on the processing

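The count of 6714 genes changed at 48 h stayed within 1.5 times of itself under every alternative run, from 5074 at an adjusted p under 0.01 to 7600 with the probe set of the strongest effect, and lay between 5952 and 6715 without 1 array (higher 3068 to 3429, lower 2868 to 3286). The 599 distinct list members changed became 549 to 602 without 1 array. The 380 interactions were less stable: 123 to 285 without 1 array, 76 with 30 subtracted, 638 with a mean log2 of at least 7, 226 with the replicate block within each time and 67 at an adjusted p under 0.01; the cause was not tested. Of 174 named genes called at 48 h, 170 kept their call under every alternative with all arrays in which they were measured, the exceptions being MYC, CRX, CDKN1C and B2M, and 171 kept it without any 1 array, the exceptions being MYC, CRX and CDKN1C. NRL, not called, passed with the replicate block (adjusted p = 0.0132) and with the block within each time (adjusted p = 0.00142), NPNT passed with the latter (adjusted p = 0.0382), and ATOH8 passed with its probe set of the strongest effect (adjusted p = 0.0202). MDM2 turned from -0.20 to 0.33 with another of its probe sets, both under the strongest-effect choice and without _x_at and _s_at probe sets. Of the counts of 46 lists in either direction, 27 moved by over 1.5 times without such probe sets and 13 with a mean log2 of at least 7, both of which leave fewer genes measured: of the former, 1 of 9 MYC network genes, 3 of 6 CDK inhibitors and 3 of 15 drug targets rose, 3 of 15 drug targets and 2 of 14 glycolysis genes fell, and of the latter 8 of 15 immediate early genes rose. The 5 drug targets that rose were 3 without DMSO 48 h replicate 1 or 2 or entinostat 48 h replicate 2. Dim genes limit what can be seen, since 4.81% of those with a mean log2 under 6 passed. Correlations between entinostat and DMSO arrays of the same time were also taken on deviations from the group means. For same-numbered arrays they were 0.10, 0.06 and -0.06 at 48 h and 0.05, 0.20 and 0.17 at 24 h. For arrays of different numbers they lay from -0.13 to 0.07 at 48 h and from -0.21 to 0.06 at 24 h. Whether the replicate numbers pair the arrays was not tested. With the replicate block the counts were 6783 genes at 48 h and 410 interactions (6707 genes with a block within each time).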
